A study of Mus musculus with 2 samples.

Results

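Alveolar type I cell genes were followed on 1 array of fetal mouse lung, on which 2 RNA samples were hybridised together: Pdpn, Ager, Hopx, Cav1, Cav2, Emp2, Rtkn2, Akap5 and Gprc5a. They were found by name, as probes whose listed gene is a member or carries a former symbol of it (Hod for Hopx, Plekhk1 for Rtkn2 and a RIKEN clone name for Akap5). All 9 of 9 were found, with 15 probes of 60 bases, among 17244 genes that gave a value. One sample was airway epithelium at E18.5, late in gestation (E counts the embryonic day), labelled with the red dye Cy5. Its counterpart came from E14.5, when the airways are still branching, and carried the green dye Cy3. Both were wild type, from male fetuses of the CD-1 strain, a general-purpose outbred mouse stock, and both were cut by laser from frozen sections of 1 lung per age, so that an age is 1 sample. The RNA went through 1 round of amplification before labelling. The dissection aimed at the airways inside the lobes, not at alveoli. By its title, the study was a search for genes through which FOXJ1 acts when motile cilia form.

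Type I cells are thin, spread cells that line most of the gas-exchanging surface of the lung, and they arise with the surfactant-making type II cells from distal epithelium late in gestation. Their known products serve a flat shape and a large membrane: caveolae, which are flask-shaped pits of the cell surface, links between membrane and actin, and channels for fluid. None of the 9 genes belongs to type I cells alone. Caveolins are abundant in endothelium, podoplanin in lymphatic endothelium and mesothelium, and Gprc5a in airway epithelium.

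At E18.5, 5 of the 9 genes had at least 2-fold the intensity of E14.5. In the other direction the count was 0, and the remaining 4 differed by less than 2-fold. The background was 17.3% of all genes with such a higher value and 10.1% with such a lower one, so that 62.5% of the calls measured at both ages were higher, against 52.6% by the scanner software's ratio. Hopx, Ager, Emp2, Gprc5a and Cav2 made up the higher group. Cav1 and Rtkn2 were above 0 on the log2 scale but within 2-fold, and Akap5 and Pdpn were below 0. The median log2 ratio of the 9 genes was 1.43, against 0.06 over all genes, and the members ran from −0.71 to 2.04. These are differences between 1 sample per age without a dye swap, so they have no replicate check and no p-value, and dye and age cannot be told apart. Fewer cells of a type and less RNA per cell cannot be told apart either in dissected tissue.

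**Figure D1:**
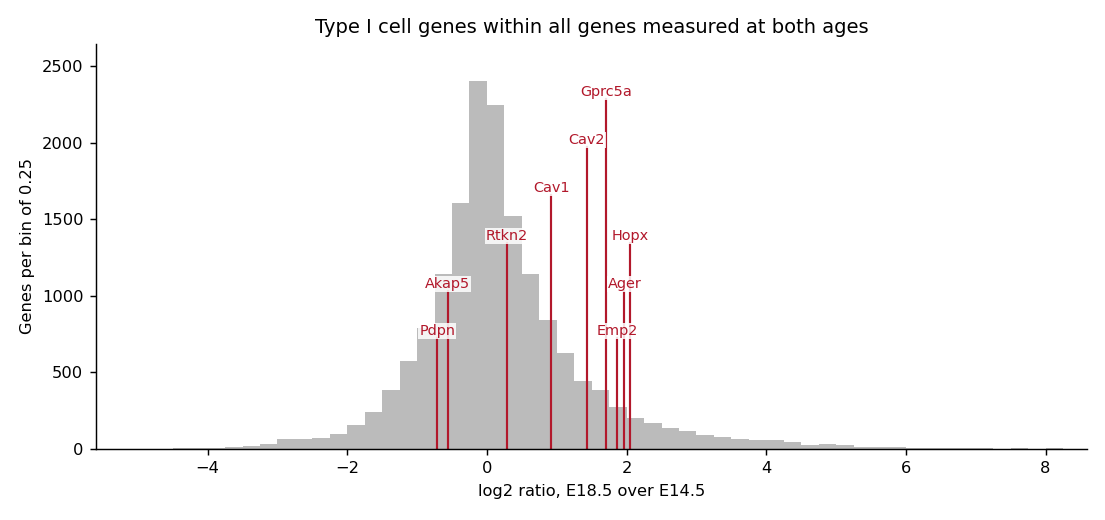
The grey bars count the 16317 genes measured at both ages by log2 ratio, E18.5 over E14.5, in bins of 0.25. Red lines mark the 9 type I cell genes at the ratio of their brightest probe. A cluster of 5 lies above 1, Cav1 lies just below 1, Rtkn2 lies near the centre, and Akap5 and Pdpn lie to the left of it.

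Promoter sequence was available for 7 of the 9 genes, and the 250 bases before the start are printed for 3 genes of the higher group and, for contrast, for Akap5 of the lower side. They come from RefSeq on GRCm38.p6 and are written in the direction of the gene. Capitals mark motif matches, read on both strands. The motif of TEAD factors was searched as CATTCC. For NKX2-1, the lung lineage factor, the letters were CTCAAG. The GC box of SP and KLF factors was GGGCGG. For the TATA box they were TATAAA. The CCAAT box was searched by the letters of its name, and the CArG box, which SRF binds, in its strict consensus form, a run of A or T bases between CC and GG.
Hopx, minus strand, chr5:77115124-77115373: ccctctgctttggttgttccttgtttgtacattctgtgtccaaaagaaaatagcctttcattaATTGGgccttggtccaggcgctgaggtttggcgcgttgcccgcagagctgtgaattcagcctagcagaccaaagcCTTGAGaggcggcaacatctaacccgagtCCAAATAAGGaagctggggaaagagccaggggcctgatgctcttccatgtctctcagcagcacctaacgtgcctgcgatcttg
Ager, plus strand, chr17:34597600-34597849: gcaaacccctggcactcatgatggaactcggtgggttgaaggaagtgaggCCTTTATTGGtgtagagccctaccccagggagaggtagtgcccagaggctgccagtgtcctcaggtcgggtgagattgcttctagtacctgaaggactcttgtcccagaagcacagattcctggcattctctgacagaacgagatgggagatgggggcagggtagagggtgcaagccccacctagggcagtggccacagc
Cav2, plus strand, chr6:17280935-17281184: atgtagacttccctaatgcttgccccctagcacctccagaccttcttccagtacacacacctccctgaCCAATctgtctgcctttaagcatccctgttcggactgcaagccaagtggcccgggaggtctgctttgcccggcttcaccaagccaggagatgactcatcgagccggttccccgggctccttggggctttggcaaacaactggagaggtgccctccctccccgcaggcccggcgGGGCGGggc
Akap5, plus strand, chr12:76324641-76324890: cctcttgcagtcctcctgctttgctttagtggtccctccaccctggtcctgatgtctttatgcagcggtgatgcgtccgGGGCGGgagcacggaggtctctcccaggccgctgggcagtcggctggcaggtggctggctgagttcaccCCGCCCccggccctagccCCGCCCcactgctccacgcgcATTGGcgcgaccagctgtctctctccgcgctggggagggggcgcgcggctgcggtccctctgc

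The CArG box was added to the search after the Hopx sequence had been read. In the printed windows it stands 83 to 74 bases before the Hopx start and 200 to 191 bases before the Ager start, where a CCAAT match overlaps it. Of the 32851 promoter windows of this length, 1.47% hold one. The printed Hopx window also holds an NKX2-1 motif, 112 to 107 bases before the start, as do 13.3% of all windows. Hopx has a second listed start, with its window at chr5:77095268-77095517. That window holds a CCAAT match but neither a CArG box nor an NKX2-1 motif. No TEAD motif was found in any window of the 7 genes, and 12.6% of all windows hold one. The GC box, held by 32.7% of all windows, occurs in Cav2, Cav1 (not in the window of its second listed start), Emp2 and 3 times in Akap5. Base composition ranged widely, with 70.0% G and C and 20 CG pairs in Akap5, 43.2% and 2 pairs in Pdpn, and a median of 52.4% and 6 pairs over all windows. A match is a string of letters, and no binding was measured.

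Hopx encodes a small homeodomain protein that does not bind DNA and that restrains SRF in heart muscle. Its normalized intensity was 53407 at E18.5 and 12946 at E14.5, a log2 ratio of 2.04 (4.13-fold), the highest among the 9 genes. The single probe lay on chromosome 5 from 78162210 to 78162269 on mm8, the build of the array files. Among 16317 genes measured at both ages, Hopx held rank 1115 from the top. The probe was well above background at both ages, and the scanner software gave 1.96.

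Ager encodes RAGE, the receptor for advanced glycation end-products, which sits on the basal surface of type I cells and is among their most specific products. Intensity was 5023 at E18.5 and 1282 at E14.5, a log2 ratio of 1.97 (3.92-fold) and rank 1192. The probe was shown on mm8 at chr17:34206826-34206987, a stretch of 162 bases for 60 bases of probe, so that it joins sequence from both sides of a gap in the genome. Its sequence is printed because the ratio rests on it alone.
Ager probe: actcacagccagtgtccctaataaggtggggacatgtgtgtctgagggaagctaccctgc
Ager was thus measured well above background at both ages in material taken as airway epithelium, with a background-subtracted signal of 5074 at E18.5 and 1233 at E14.5.

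Emp2 and Gprc5a encode membrane proteins. Emp2, a tetraspan protein that affects integrin signalling and the surface level of caveolin 1, had intensities of 68928 at E18.5 and 18909 at E14.5, a log2 ratio of 1.87 (3.65-fold). Its only probe covers chr16:10195454-10195513 of mm8. Gprc5a, an orphan receptor induced by retinoic acid and a lung tumour suppressor in mice, was measured by 2 probes only 88 bases apart on chromosome 6. The brighter one had 35708 at E18.5 and 10930 at E14.5 (log2 ratio 1.71, 3.27-fold), and the other had 7872 at E18.5 and 3168 at E14.5 (1.31, 2.49-fold). Both probes of Gprc5a therefore passed 2-fold. The SD between them was 0.28 on the log2 scale, below the median SD of 0.33 between the probes of a gene over 6890 genes.

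**Figure D2:**
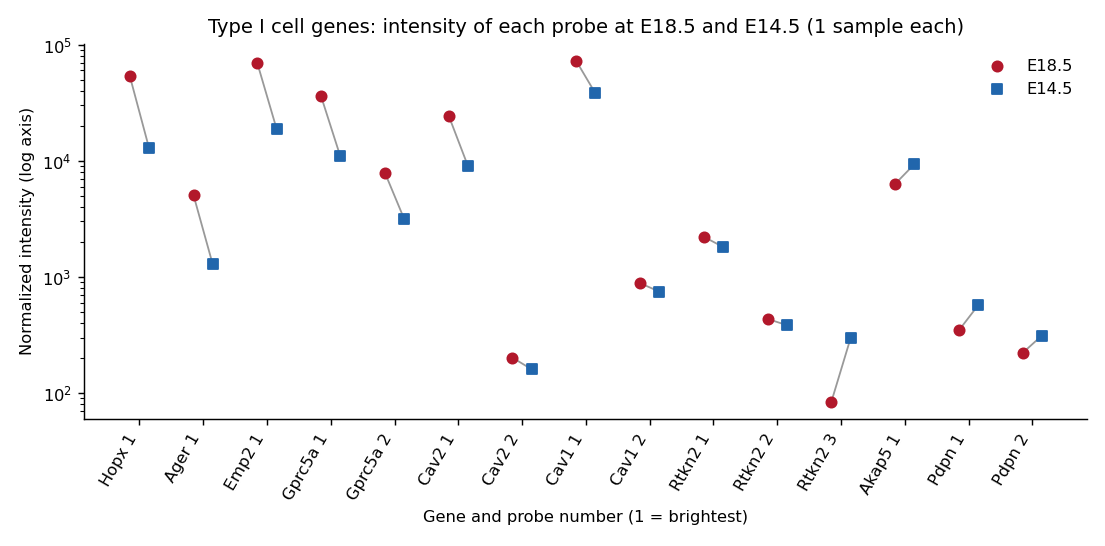
Normalized intensity (log axis) of each of the 15 probes, with E18.5 as red circles left of E14.5 as blue squares and a line joining the values of a probe. Probes bind with different strength, so heights are to be compared within a probe only. Lines fall to the right for Hopx, Ager, Emp2, Gprc5a, Cav2 and Cav1, and rise to the right for Akap5, Pdpn and the third Rtkn2 probe.

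The caveolins, which build the coat of caveolae and are encoded by neighbouring genes on chromosome 6, differed between their probes. The main Cav2 probe, on mm8 at 17238393 to 17238452, was spotted 10 times, and 1 spot was an outlier. Over the other 9 spots its intensity ran from 21565 over a median of 25175 to 26055 at E18.5, and from 8357 over a median of 9225 to 9621 at E14.5. The spots of both ages did not overlap, and the log2 ratio was 1.43 ± 0.03 (SD over 9 spots of 1 array), with every spot between 1.37 and 1.48. This is a technical spread and says nothing of variation between animals. The second Cav2 probe, placed 5768 bases upstream and designed on an isoform transcript, was dim, with 202 at E18.5 and 160 at E14.5 (log2 ratio 0.33).

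Cav1 showed the same kind of gap. Its brighter probe, on mm8 at 17291169 to 17291228, had 72120 at E18.5 and 38005 at E14.5, a log2 ratio of 0.92 (1.90-fold). The other probe lay 1972 bases upstream, at chr6:17289197-17289256, and had 885 at E18.5 and 748 at E14.5 (0.24, 1.18-fold). Its sequence is given because it disagreed with the brighter probe by 0.68 on the log2 scale.
Cav1 probe 2: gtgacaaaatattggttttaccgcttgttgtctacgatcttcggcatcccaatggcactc
With the median over the probes of a gene, Cav1 came to 0.58 and Cav2 to 0.88, both within 2-fold. With median centring of the array in place of the intensity-dependent loess curve, Cav1 passed 2-fold at 1.29. Whether Cav1 counts as higher thus depended on the setting, while it stayed above 0 in all of them.

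The other proteins of caveolae were read from a list of 8 genes: 3 passed 2-fold upward, 0 downward, and the median log2 ratio was 0.63. Of all genes, 17.3% passed 2-fold upward and 10.1% downward. Cavin1, which is needed to form the caveolar coat, was at 1.19 (2.27-fold) by its brightest probe, with another of its 3 probes at 0.17, and Cavin2 was at 0.73. The muscle forms Cavin4 (2.76, 6.77-fold) and Cav3 (1.16, 2.24-fold) were the other higher genes, with intensities of 1560 and 774 at E18.5, against 230.5 and 345 at E14.5. Cavin3 (−0.15), Ehd2 (−0.02), Pacsin2 (0.52) and Pacsin3 (−0.27) lay closer to 0 by their brightest probes. Another of the 3 Ehd2 probes was at −0.81, and the other Pacsin3 probe was at 0.37. Endothelium is rich in caveolae, and its 12 markers are given beside the caveolins: 6 passed 2-fold upward, 0 downward, the median was 1.01, and their summed intensity was 130187 at E18.5 and 26663 at E14.5. Kdr alone, named after its value was seen, gave 71669 of that sum at E18.5 and 4090.3 at E14.5. All 12 had a ratio above 0 by their brightest probe, but Tie1 (0.09) and Eng (0.12) were below 0 by the scanner software (−0.15 and −0.11). Ramp2, among the higher ones at 1.47, had 5 probes that ran from −0.89 to 1.91. Each of the 12 was well above background at both ages. Markers of 2 other tissues had larger sums. For 8 mesenchyme markers the sum was 383346 at E18.5 and 285309 at E14.5. For 5 smooth muscle markers it was 137608 at E18.5 and 340482 at E14.5. The part of any of these cells in the caveolin ratios was not tested.

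Rtkn2, Akap5 and Pdpn stood apart from the higher group. Rtkn2 encodes rhotekin 2, a protein with a pleckstrin homology domain. Its brightest probe, on chromosome 10 from 67437780 to 67437839 on mm8, had 2216 at E18.5 and 1812 at E14.5 (log2 ratio 0.29), and the second, 928 bases upstream, had 435 at E18.5 and 385 at E14.5 (0.18, and −0.0045 by the scanner software). The remaining probe, 17006 bases downstream of the brightest and designed on a RIKEN clone, was well above background at E14.5 only. Its intensity was 84.3 at E18.5 and 296 at E14.5, a log2 ratio of −1.81 (3.51-fold lower). Median centring gave −1.72, so 3.51-fold is not a lower limit over all settings. The 3 Rtkn2 probes thus gave no common picture, and the gene's ratio is that of the transcript part the brightest probe binds.

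Akap5 encodes a scaffold that holds protein kinase A and calcineurin near receptors and channels at the membrane. Intensity was 6318 at E18.5 and 9327 at E14.5, a log2 ratio of −0.56 (1.48-fold lower), read by a single probe at chr12:77252834-77252893 of mm8. The file names that probe by a clone, and the clone name is listed as a former symbol of Akap5. Every alternative setting kept it below 0, between −0.75 and −0.49.

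Pdpn encodes podoplanin, also called T1alpha, a mucin-type glycoprotein of the apical membrane from which type I cells in rodents are often stained. Its ratio had the opposite sign to those of Ager and Hopx. The brighter probe, on chromosome 4 from 142535042 to 142535101 on mm8, had 347 at E18.5 and 569 at E14.5, a log2 ratio of −0.71 (1.64-fold lower). The second had 222 at E18.5 and 313 at E14.5 (−0.49, 1.41-fold lower). Its listed place on mm8, chr4:142534109-142534127, spans only 19 bases for 60 bases of probe. Both probes were well above background at both ages but dim, with background-subtracted signals of 319 and 191 at E18.5 and of 521 and 272 at E14.5. By the scanner software's ratio Pdpn stood at −1.01, just past 2-fold lower, where 15.6% of all genes lay by that ratio, and at −0.93 once the median of that ratio over all genes was subtracted. Markers of other cell types known to make podoplanin were uneven: of 5 lymphatic endothelium markers with a value 3 passed 2-fold upward and 0 downward (summed intensity 20036 at E18.5 and 4170 at E14.5), and of 5 mesothelium markers 2 were higher and 0 lower (48400 at E18.5 and 5943 at E14.5). Of all genes, 17.3% passed 2-fold upward and 10.1% downward by the main ratio. Genes are named here after their values were seen, and single genes carried most of these sums at E18.5. Lyve1 gave 13609 of the lymphatic sum at E18.5 and 1474 at E14.5. Reln (log2 ratio 3.60) and Mmrn1 (1.35) were the other higher lymphatic genes. Prox1, the factor that defines lymphatic endothelium, was at −0.64 (−0.91 by the scanner software), and Flt4 was dim (116 at E18.5 and 104 at E14.5). Msln gave 43592 of the mesothelium sum at E18.5 and 4975 at E14.5, and Upk1b (2.79) was the other higher gene. Upk3b, Wt1 and Lrrn4 were dim at both ages with log2 ratios of 0.05 to 0.13, and Bnc1 was not well above background at either age. The part of these cells in the Pdpn ratio was not tested.

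**Figure D3:**
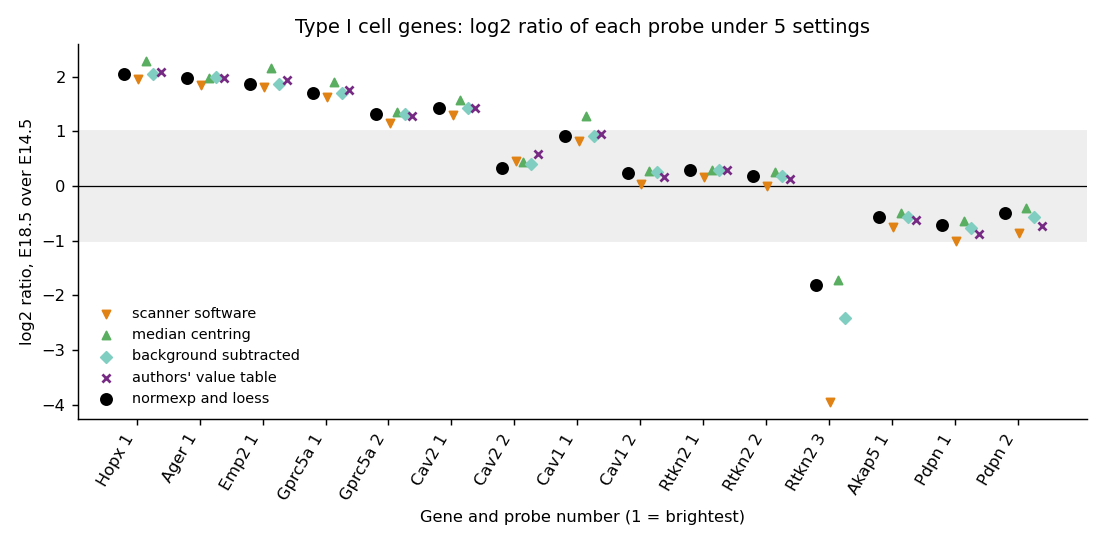
The log2 ratio, E18.5 over E14.5, of each probe under 5 settings: black circles for normexp and loess, and 4 smaller symbols for the alternatives. The grey band marks less than 2-fold. The 5 symbols of Hopx, Ager, Emp2 and Gprc5a all lie above the band, those of the main Cav1 probe straddle its upper edge, and the third Rtkn2 probe, for which the authors' table gives no value above its floor, spreads from −1.72 to −3.95 because it was near background at E18.5.

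Other genes known from type I cells were read from a list of 20, of which 19 were found. At E18.5, 9 of them passed 2-fold upward and 3 downward, where 17.3% and 10.1% of all genes did. Their median log2 ratio was 0.70. Cyp2b10, a cytochrome P450, had 5541 at E18.5 and 148 at E14.5 (log2 ratio 5.22, 37.4-fold). Aqp5, the apical water channel, which airway cells also make, had 3637 at E18.5 and 168 at E14.5 (4.43, 21.6-fold). Timp3, an inhibitor of matrix metalloproteases, was at 2.32 (4.98-fold) and Clic5, an ezrin-linked chloride channel protein, at 1.65 (3.14-fold, with another of its 3 probes at 0.04). The lowest were Ndnf, a secreted neurotrophic protein, at −2.35 (5.09-fold lower), and Igfbp2, which binds insulin-like growth factors and marks mature type I cells in mice, at −2.11 (4.31-fold lower). The third lower gene was the lung claudin Cldn18 at −1.52 (2.86-fold lower), named after its value was seen. Low and high ratios thus occurred together among the type I genes of both lists.

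Ligands, anchored proteins and other partners of the members formed a list of 24, in which 9 passed 2-fold upward and 2 downward, around a median of 0.14. Over all genes the shares were 17.3% upward and 10.1% downward. Ligands of RAGE went both ways. The calprotectin genes S100a8 (1905 at E18.5 and 116 at E14.5, log2 ratio 4.04) and S100a9 (1638 at E18.5 and 177 at E14.5, 3.21) and S100b (2142 at E18.5 and 274 at E14.5, 2.97) were higher together with their receptor. So was S100a4 (1.24, 2.37-fold), named after its value was seen. Hmgb1, the nuclear protein that also binds RAGE, was the only listed ligand below 0, at −1.27 (2.41-fold lower) by its brightest probe. Its 4 probes ran from −1.27 to −0.32. Calprotectin is made by neutrophils and macrophages, and the 8 leukocyte markers had a summed intensity of 15739 at E18.5 and 4139 at E14.5, with 6 past 2-fold upward and 0 downward. Their part in the S100a8 and S100a9 ratios was not tested. The adenylyl cyclase Adcy5, which Akap5 anchors, had 209.8 at E18.5 and 479.5 at E14.5 (−1.19, 2.29-fold lower). Adcy5 had the same sign as Akap5 itself, but the partners of Akap5 went both ways. Prkar2a (−0.48), Adcy6 (−0.48) and Ppp3ca (−0.16) were also below 0. Prkar2b (1.06, 2.08-fold) and Ppp3r1 (0.95, with another of its 3 probes at −1.01) were above 0. They are named after their values were seen.

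By the median, close relatives of the members lay nearer to 0, at 0.14 against 1.43 for the members. Of 9 paralogs, 1 passed 2-fold upward and 0 downward, where 17.3% and 10.1% of all genes did. Beside Emp2 at 1.87, Emp1 was at 0.92, Pmp22 at 0.75 (its other probe at −0.04) and Emp3 at −0.80. Beside Gprc5a at 1.71, Gprc5b was at −0.42, Gprc5c at −0.01 (its other probe at 0.34) and Gprc5d at 0.16 (−0.02 by the scanner software). Rtkn was at 0.14 (−0.05 by the scanner software) and Akap12 at −0.38, near their relatives Rtkn2 and Akap5. Cav3, at 1.16, lay farther from 0 than Cav1 at 0.92 and is described with the caveola genes. Probes of relatives can bind each other's transcripts only where they are near-identical, which was not examined.

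**Figure D4:**
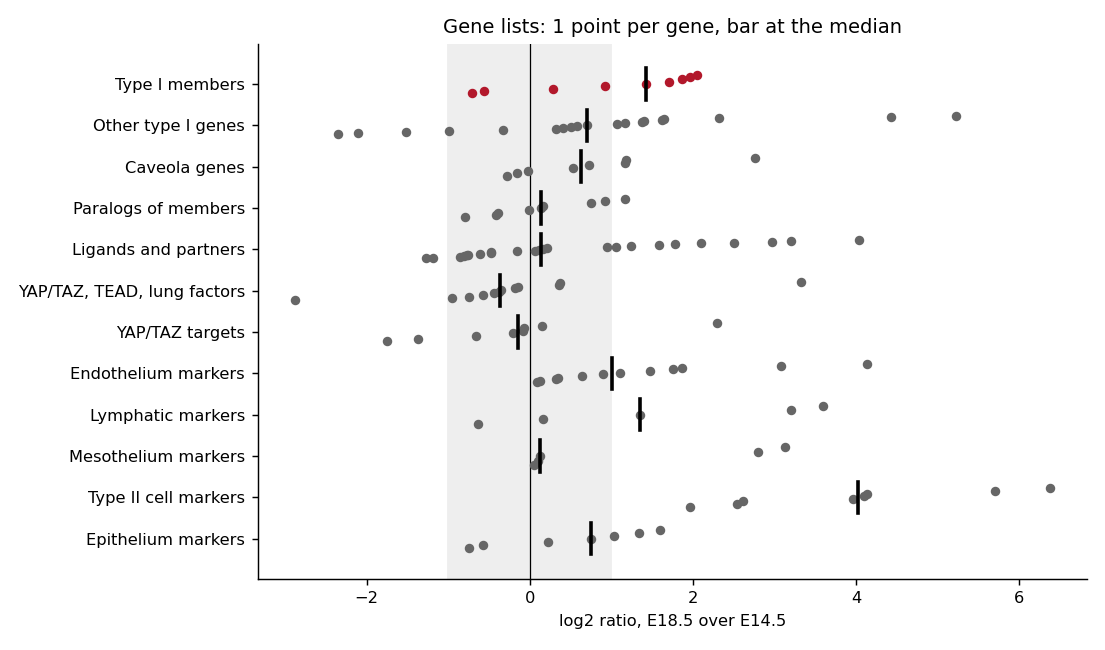
The log2 ratio, E18.5 over E14.5, of each gene (points) in 12 gene lists, with a bar at the list's median and a grey band for less than 2-fold. The type I members, in red, have a median of 1.43, the other type I genes one of 0.70 with a wide spread, and the type II cell markers one of 4.03.

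Markers of the surrounding epithelium put these ratios in context. All 8 type II cell markers were at least 2-fold higher, with a median of 4.03 and a summed intensity of 423067 at E18.5 and 44460 at E14.5, and so were all 6 club cell markers (median 7.25) and all 6 markers of ciliated cells (summed intensity 131238 at E18.5 and 15312 at E14.5). Each of the 9 type I members had a smaller ratio than the type II and club cell medians. The 5 basal cell markers went both ways, with 1 past 2-fold upward, 1 downward and a median of −0.09. Of all genes, 17.3% passed 2-fold upward and 10.1% downward. General epithelial markers had a median of 0.75, with 3 of 7 past 2-fold upward and 0 downward, and all 7 were well above background at both ages. The 8 mesenchyme markers lay within 2-fold (median 0.44), 4 of 5 smooth muscle markers were lower, and all 7 proliferation markers were lower (median −3.26).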

How the data were processed

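The scanner tables of both samples were identical in 115 of 115 columns and were read as 1 array, red for E18.5 and green for E14.5. Per the file headers, Agilent Feature Extraction wrote the linear spot and background intensities, the processed intensities (background-subtracted and dye-normalized), their log10 ratio, and flags of 0 or 1 (other) for outlier and well-measured spots, all as deposited. The version, 9.5.3.1, is given in the submitters' processing notes. The authors' deposited value table holds linear intensities with a floor of 15. Here, intensities were background-corrected (normexp, offset 50) and loess-normalized with a span of 0.3 and 4 iterations (limma 3.58.1, R 4.3.3). Control and outlier spots had weight 0 and were left out, and repeated spots averaged. Of 41170 probes, 33099 were named through a RefSeq table of GRCm38.p6. Each gene is given by its brightest probe that was well above background in at least 1 channel. A gene above background at 1 age only gives a bound: the bright signal over the higher of the dim spot and the lowest signal that was well above background. Such bounds are open to dye bias. Loess hides any shift common to most genes, and the offset pulls dim ratios towards 0. The median background-subtracted signal was 308 at E18.5 and 256 at E14.5, and 79.1% and 75.7% of probe spots were well above background. The number of arrays, 1, limits the precision. Calls were made at 2-fold by size. Python 3.11.15, pandas 2.3.3 and matplotlib 3.10.9 were also used.

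The members and lists were chosen with earlier results of these data known. Named are all members, caveola genes and paralogs, and the 4 highest and 2 lowest genes of each other list, of which 1 is not reported here. Marker lists are given by counts with medians or sums, and some single markers are named after their values were seen. So are some further genes of the other lists. Alternatives were the scanner software's ratio, median centring, an offset of 16, background subtraction, the median over probes, no filter on dim probes and the authors' value table.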

Additional observations from a re-analysis of the deposited data

How the results depend on the processing

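Each of the 9 type I cell genes kept its sign under all 7 alternatives. Hopx, Ager, Emp2 and Gprc5a stayed past 2-fold in all of them, with log2 ratios from 1.51 for Gprc5a to 2.29 for Hopx. Of the values for single genes, 60 moved by less than 0.33, the median SD between probes, and 3 by more: Cav1 with median centring (1.29) and with the median over probes (0.58), and Cav2 with the median over probes (0.88). The 60 include all values without the filter on dim probes, which rested on the same probes as the main setting and equal it. They also include the medians over probes of the 4 members with 1 probe, which could not move. The count of members at least 2-fold lower was 1, in place of 0, with the scanner software's ratio, through Pdpn. The median of the members was 0.88 with the median over probes, in place of 1.43. The scanner software's ratio moved the median of all genes measured at both ages by −0.13, and called 2822 higher and 2543 lower of 16317 such genes, against 2986 and 1738 of 17244 genes with a ratio or bound. Signal over background limits the second Cav2 probe, both Pdpn probes and the third Rtkn2 probe. No paired analysis was possible because each age has 1 sample.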

Other observations

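The type I cell fate depends on the coactivators YAP and TAZ, which act through TEAD factors, and on lung lineage factors. Of 12 such genes, 1 passed 2-fold upward at E18.5 and 1 downward, and the median log2 ratio was −0.37. Over all genes, 17.3% did so upward and 10.1% downward. Wwtr1, which encodes TAZ, had 13961 at E18.5 and 1394 at E14.5 (log2 ratio 3.32, 10.0-fold), and its other probe was at 1.18. Yap1, its relative, was at −0.95 (1.93-fold lower, and past 2-fold at −1.07 by the scanner software), and Tead2 had 3357 at E18.5 and 24615 at E14.5 (−2.87, 7.33-fold lower, with another probe at −2.51). Foxa1 (0.37), Foxa2 (0.36) and Tead4 (−0.15) lay near 0. The 2 coactivators thus lay on opposite sides of 0 in these samples.

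Among 8 genes known as YAP and TAZ targets, 1 passed 2-fold upward and 2 downward, where 17.3% and 10.1% of all genes did. Their median was −0.14. F3, which encodes tissue factor, was at 2.30 (4.93-fold), with a second probe at 2.46. Ccn1, a matrix-associated signalling protein, was at −1.76 (3.38-fold lower) and Ajuba, a LIM-domain scaffold, at −1.37 (2.59-fold lower). Ankrd1 (0.15), Lats2 (−0.08) and Axl (−0.09) were near 0.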
